A study of Mus musculus with 12 samples.

Results

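The hearts described here came from mice on a complete control diet. They had undergone sham surgery or TAC (transverse aortic constriction), in which a band around the aorta raises the pressure the left ventricle works against. They make up the 6 samples of the control diet among the 12 of the series, 3 after sham surgery and 3 after TAC, and all 15505 genes of the table that sets one of these groups against the other were included. All mice were male C57Bl/6J, 12 weeks old, and the labels name no transgene, deletion or drug. Both groups ate the BCAA-control diet, which supplied every essential amino acid, the BCAA among them (leucine, isoleucine and valine, whose side chains are branched), from 4 days before surgery until the hearts were taken 2 weeks after it. The other 6 samples, 3 sham and 3 TAC on a diet free of BCAA, enter only the comparison between the diets and 1 alternative fit. The comparison between the diets holds their own fit of TAC against sham and the test of whether the effect of TAC differed. The comparison of TAC with sham on the control diet gives the effect of pressure overload on cardiac RNA where the supply of BCAA is complete.

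PolyA RNA of the heart was measured by sequencing. Whether each sample is a single heart or a pool, its chambers and the hour of collection are not in the labels, so the p-values rest on a spread between samples that may be technical only. In RNA from whole tissue, fewer cells of a type and less RNA per cell cannot be told apart. Values are normalized read counts: the reads of a gene divided by 1 scaling factor per library. They are not divided by gene length, so levels are compared between libraries and never between genes. Whether the counting used strand or split reads between near-identical genes is not stated, so values of close relatives (Myh6 and Myh7, the actins and tubulins, the Gbp genes, Acot1 and the H2 genes) are less certain than those of single-copy genes. Values are listed for replicates 1, 2 and 3 of a group in that order. The labels do not say that the numbers pair a sham with a TAC sample, and the main fit treats the samples as unpaired. A fold change is the TAC mean minus the sham mean of log2(value + 1), given ± SE with n = 3 in each group. A gene is said to have risen or fallen where limma's moderated test gave an adjusted p under 0.05 over the 15397 genes whose mean value reached 10. With 3 samples against 3, an exact two-sided permutation test of 1 gene cannot go below p = 0.1, which is its value for every gene below whose groups do not overlap.

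Pressure overload is known to make cardiac muscle cells grow in thickness, and adult ventricles under load return to a pattern of genes seen before birth, with natriuretic peptides and slow or skeletal forms of myosin and actin. Cardiac fibroblasts answer load and injury by turning into matrix-secreting cells that lay down collagen, periostin and other secreted proteins between the muscle cells. The adult heart draws most of its energy from the oxidation of fatty acids in mitochondria, and the genes of that machinery are known to fall as the loaded heart remodels.

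After TAC 622 of 15397 genes passed (4.04%). Of these 454 rose (2.95% of genes tested) and 168 fell (1.09%). Among them 207 rose and 37 fell by at least 1 on the log2 scale. The median change over all genes tested was -0.0047 on the log2 scale, which is the background for every list median below. The shares of 2.95% and 1.09% are the background for every count of list members below that rose or fell. All 3 TAC libraries lay above or below all 3 sham libraries for 5427 genes (35.2%), 2747 above (17.8%) and 2680 below (17.4%). The balance of the calls depended on scaling: with trends over GC content and transcript length taken out of each library 638 genes rose and 845 fell. With scaling to library totals alone 1267 rose and 148 fell, while the median of all genes moved to 0.14. DESeq2 on the recovered reads called 1291 higher and 912 lower, and edgeR 415 and 134. In the authors' deposited table the number of genes higher was 1291 and of genes lower 916 at an adjusted p under 0.05, and these include 453 of the 454 rises and 168 of the 168 falls given here.

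The calls also depended on single libraries, since each omission leaves 2 samples against 3. Without TAC replicate 3 limma called 0 genes, with 3372 at an unadjusted p under 0.05. Without sham replicate 1 it called 2, Mybpc2 and Igfbp2, and without sham replicate 2 also 2, Igfbp2 and Mgat5b. It called 98 without sham replicate 3, 196 without TAC replicate 2 and 1061 without TAC replicate 1. Of the 114 genes named here that passed, 106 also passed without TAC replicate 1, 61 without TAC replicate 2 and 25 without sham replicate 3, and under each of the 6 omissions all 114 kept their direction. Every count of called genes below shares this dependence, so a list median, where first given, comes with its range over the 6 omissions. Among the 6 libraries 3 stood apart. TAC replicate 2 had the lowest share of mitochondrially encoded RNA, 15.1% against 18.8% to 20.4% in the other 5 libraries, and the strongest response of the fibrillar collagen, matricellular, fetal, interferon and fatty acid oxidation lists. In sham replicate 3 a gene's deviation from its mean ran with transcript length (Spearman -0.46 across genes, against 0.02 to 0.23 in the other 5), shorter transcripts reading higher. The trend was 0.21, 0.12 and 0.23 in the TAC libraries and 0.02 and 0.09 in sham replicates 1 and 2. By the longest transcript of each gene, the median length was 4570 bases for rises, 2620 for falls and 3216 for all genes tested. TAC replicate 1 read highest for 6 of the 9 measured adipocyte markers, while 2 were highest in sham replicate 3 and 1 in sham replicate 2. The median of the 9 lay 1.40 above the sham mean on the log2 scale in TAC replicate 1, against 0.06 and -0.48 in TAC replicates 2 and 3. Adipoq, adiponectin, read 33.9, 21.9 and 31.6 in sham and 108, 42 and 19.1 in TAC libraries. Ucp1, the uncoupling protein of brown fat, stood at 0.87, 0 and 0 in sham and 86.9, 2.16 and 0 in TAC libraries. The summed level of the 9 markers, most of it from Lpl, the lipoprotein lipase that heart muscle also makes, ranged from 122427 to 132127 in sham and from 91543 to 115583 in TAC libraries. Beyond the values without each library given here and below, the part of these features in the results was not tested. Depth was 23304440 to 52059546 recovered reads per library. Myh6, the myosin heavy chain that marks adult mouse heart muscle, lay between 790458 and 1265649 in all 6 libraries.

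**Figure D1:**
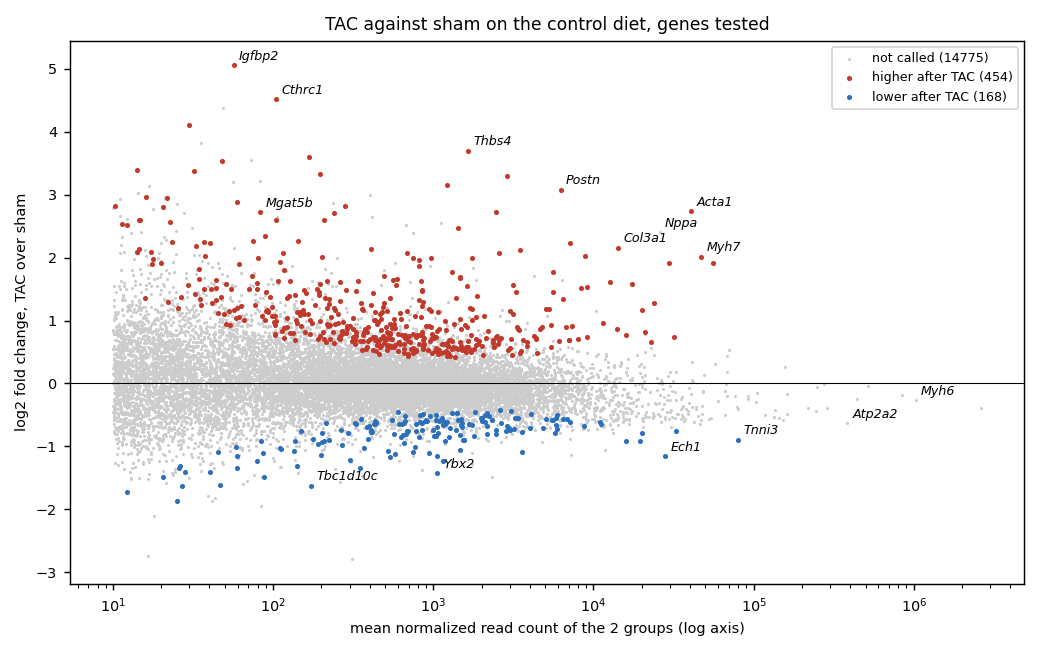
Each point is 1 of the 15397 genes tested, with the mean normalized read count of both groups on a log axis and the log2 fold change of TAC over sham on the y axis. The 454 genes that rose are red and the 168 that fell are blue, with Igfbp2 at 5.06 and Tbc1d10c at -1.63.

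Of the 16 measured genes of the fetal and stretch program 8 rose after TAC (50%, against 2.95% of all genes tested) and the other 8 did not pass. The median of the list was 0.95 on the log2 scale, from 0.67 without TAC replicate 2 to 1.13 without TAC replicate 1. Acta1, skeletal alpha-actin, an actin of the fetal heart on chromosome 8, 123891769 to 123894751 (minus strand, GRCm38), stood at 10652, 6745 and 14828 in sham and 46340.2, 84863 and 79759.6 in TAC libraries. All TAC values lay above all sham values, with TAC replicate 1 the lowest of its group, and the change was 2.73 ± 0.31 (adjusted p = 0.0217). Ankrd1, a stretch-responsive protein of the Z-disc and nucleus, went from 22104, 19001 and 25709 in sham to 55801, 134538 and 78006 in TAC libraries. Its groups did not overlap either, and the change was 1.92 ± 0.29 (adjusted p = 0.0363). Myh7, the slow beta-myosin heavy chain of the fetal ventricle on chromosome 14, 54970684 to 54994626 (minus strand), read 16458, 18944 and 13969.6 in sham and 50308, 141282 and 40200.4 in TAC libraries. TAC replicate 2 stood far above the other two, and the change was 2.01 ± 0.42 (adjusted p = 0.0451).

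Nppb, which encodes brain natriuretic peptide, read 5192, 3909.7 and 10394 in sham and 13466, 25351 and 17636 in TAC libraries, a change of 1.61 ± 0.36 (adjusted p = 0.0478). Sham replicate 3 was the highest of the sham group and still lay below all TAC libraries. Nppa, which encodes atrial natriuretic peptide, read 8256, 3081 and 11951 in sham and 22999, 86226 and 22651 in TAC libraries. Its groups did not overlap, but the spread within both was wide, and its change of 2.40 ± 0.67 did not pass (adjusted p = 0.0793). Xirp2, an actin-binding repeat protein of the Z-disc and intercalated disc, rose by 1.91 ± 0.31, from 13317, 12975 and 9281 in sham to 26983, 70006 and 44791 in TAC libraries. Rcan1, a target and inhibitor of calcineurin, rose by 0.90 ± 0.20, and Actn1, the alpha-actinin of non-muscle cells, by 1.00 ± 0.21. The remaining member that rose was Enah, a regulator of actin assembly named here after its value was seen (0.89 ± 0.20). Among the 6 genes that process or bind natriuretic peptides limma called 0, with 1 at an unadjusted p under 0.05 and 0 by edgeR and DESeq2. Their median was -0.13 (-0.25 to 0.0064, the sign turning without sham replicate 2), and 0.02 with scaling to library totals. Corin, the protease that activates pro-atrial natriuretic peptide, had a change of -0.31 ± 0.12 (adjusted p = 0.126), and Npr1, the receptor of both peptides, one of 0.23 ± 0.10 (adjusted p = 0.186).

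**Figure D2:**
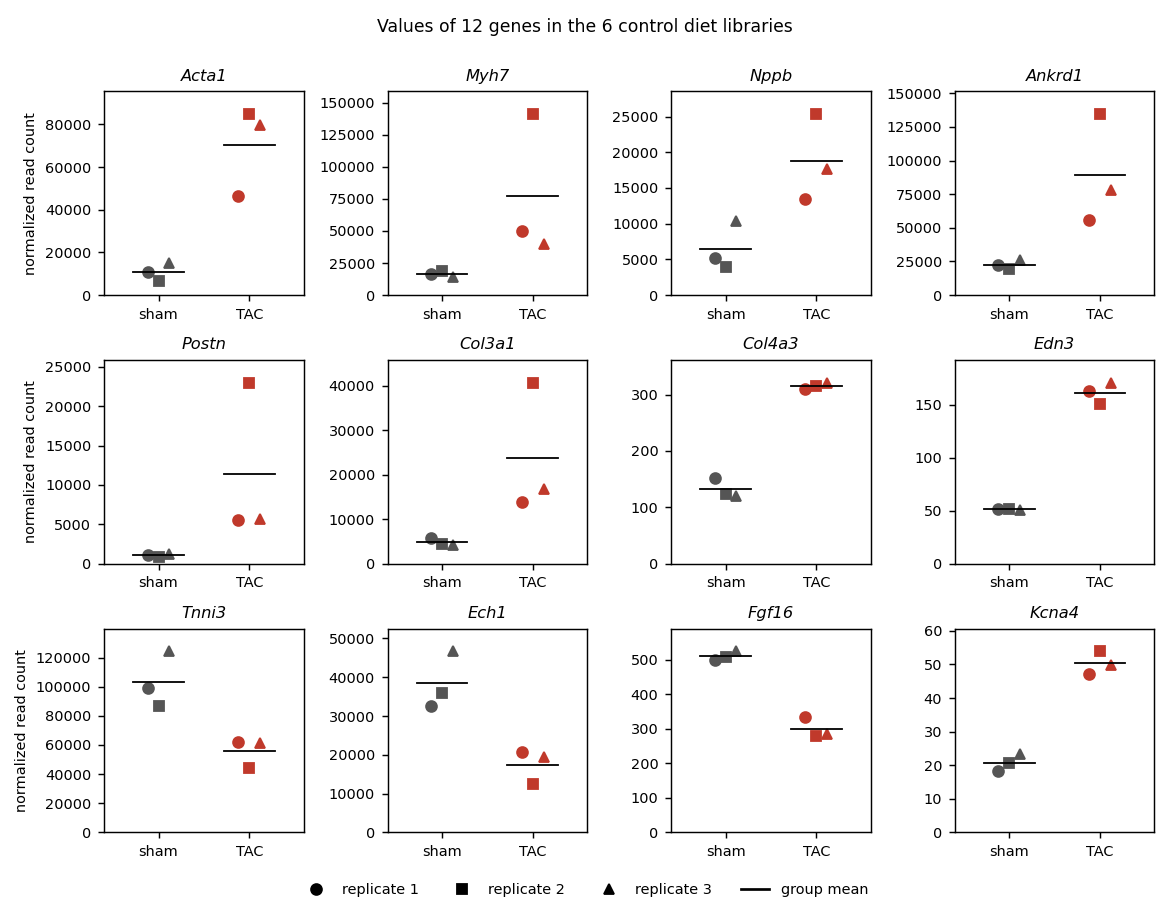
Each panel shows 1 of 12 genes, with the normalized read count on a linear axis from 0, 1 point per library (circle, square and triangle for replicates 1, 2 and 3) and a line at the group mean. In all 12 panels the sham and TAC points do not overlap, and TAC replicate 2, the square, stands highest for Myh7 (141282), Postn (22994) and Col3a1 (40703).

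The promoters of 2 genes of this program and, for comparison, of 2 interferon-stimulated genes described further on are shown because they hold short elements known to be read by factors of these programs. The window is the 250 bases before the transcription start, from RefSeq on GRCm38.p6, which matched 11085 of the 15397 genes tested by symbol. The MCAT element, CATTCC, is bound by TEAD factors in muscle, the CArG box by serum response factor, and the interferon-stimulated response element, searched as 2 copies of GAAA with any 2 bases between them, by interferon regulatory factors. Each was searched on both strands, overlapping matches were each counted, and the matches stand in capitals in the sequences, which read 5′ to 3′ along the strand of the gene and end at the base before its start.
Acta1, chr8:123894776-123895025, minus strand: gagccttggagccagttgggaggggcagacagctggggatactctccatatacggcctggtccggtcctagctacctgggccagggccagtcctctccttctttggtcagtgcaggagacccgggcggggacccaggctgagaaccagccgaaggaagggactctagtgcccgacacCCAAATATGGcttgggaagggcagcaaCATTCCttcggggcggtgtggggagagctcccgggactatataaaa
Myh7, chr14:54994627-54994876, minus strand: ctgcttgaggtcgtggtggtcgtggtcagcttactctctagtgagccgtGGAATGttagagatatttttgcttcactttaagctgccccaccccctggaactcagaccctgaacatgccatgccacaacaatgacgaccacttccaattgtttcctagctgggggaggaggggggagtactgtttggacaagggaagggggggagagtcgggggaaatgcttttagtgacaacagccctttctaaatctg
Rsad2, chr12:26456453-26456702, minus strand: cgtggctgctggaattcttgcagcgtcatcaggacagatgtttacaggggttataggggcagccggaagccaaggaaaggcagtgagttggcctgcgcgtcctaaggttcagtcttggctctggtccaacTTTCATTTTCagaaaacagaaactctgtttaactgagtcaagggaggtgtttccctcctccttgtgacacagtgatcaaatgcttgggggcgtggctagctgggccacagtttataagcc
Gbp7, chr3:142530086-142530335, plus strand: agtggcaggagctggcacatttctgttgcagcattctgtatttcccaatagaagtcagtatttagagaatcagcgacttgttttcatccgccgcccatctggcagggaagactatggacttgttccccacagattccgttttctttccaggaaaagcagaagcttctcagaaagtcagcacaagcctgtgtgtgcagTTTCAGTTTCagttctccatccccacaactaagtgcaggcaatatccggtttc
In Acta1 the capitals mark a CArG box from 73 to 64 bases before the start and an MCAT element from 46 to 41 bases before it. In Myh7 they mark an MCAT element on the other strand, written GGAATG, from 201 to 196 bases before the start. In Rsad2 and Gbp7 they mark the interferon-stimulated response element on the other strand, from 120 to 111 and from 53 to 44 bases before the start. None of these 4 windows overlaps an annotated exon in GENCODE M21.

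The MCAT element lay in 14.4% of the 27025 promoters of the RefSeq table and in 13.1% of those matched to genes tested. It lay in 4 of 14 matched members of the fetal and stretch program, and these 4, Nppb, Acta1, Myh7 and Ankrd1, are among the 8 that rose. The element was found in 21.6% of the 334 matched genes that rose and in 20.3% of the 123 matched genes that fell, so its share was above that of all promoters in both directions. The CArG box lay in 1.62% of all promoters and in 2 of the 14 of the fetal program. A match says only that these letters stand in the window, and no test was made of these shares.

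Within the sarcomere most genes did not pass, and among those that did rises outnumbered falls. The share that rose was 6.25% of thick filament (1 gene), 17.65% of thin filament (3) and 10.71% of Z-disc and costamere genes (3), against 2.95% of all genes. Of thin filament genes 5.88% fell, which is 1 gene, against 1.09% of all genes. Of 16 genes of the thick filament Myh7 alone rose, and the list median was -0.18 (-0.24 to -0.09 over the omissions, -0.03 with scaling to library totals). Myh6, the adult alpha form, read 1144455, 1265649 and 948518 in sham and 1062703, 790458 and 943769 in TAC libraries, which overlapped, and its change of -0.26 ± 0.18 did not pass (adjusted p = 0.372). Of 17 thin filament genes 3 rose and 1 fell, with a median of -0.01 (-0.12 to 0.04, positive without sham replicate 3) that turned to 0.14 under library totals and 0.01 with the GC and length trends removed. Tnni3, the adult cardiac troponin I, fell: it read 98977, 86649.8 and 124291 in sham and 61968, 43987 and 61054 in TAC libraries, a change of -0.89 ± 0.19 (adjusted p = 0.0437). All TAC libraries lay below all sham libraries. Tpm2, beta-tropomyosin, rose by 0.73 ± 0.12 and Nrap, a protein of the growing myofibril ends, by 0.74 ± 0.12, beside Acta1. Of 28 Z-disc and costamere genes 3 rose, with a median of 0.18 (0.16 to 0.24). They were Synpo2l, an actin-bundling partner of alpha-actinin (1.51 ± 0.24), Ankrd23, a relative of Ankrd1 in the same titin-binding family (0.96 ± 0.17), and filamin C, Flnc (0.82 ± 0.17). Mybpc2, the fast skeletal form of myosin-binding protein C, is not among the 16 listed genes of the thick filament. It had one of the smallest p-values of all genes. It read 862, 599 and 637 in sham and 1973, 2562 and 2197 in TAC libraries, with narrow spread in both groups and a change of 1.69 ± 0.16 (adjusted p = 0.00905). Among 26 cytoskeletal genes 4 rose and 2 fell (median 0.39, 0.23 to 0.50). Tubb2b, a beta-tubulin, rose from 69.6, 88.9 and 119.7 to 205, 450.5 and 187 (adjusted p = 0.0462), and Tuba4a, an alpha-tubulin of mature muscle, fell from 23969, 19846 and 19113 in sham to 12423, 9129 and 11880.2 in TAC libraries (-0.92 ± 0.15).

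Genes of excitation and calcium cycling mostly did not pass. Rises made up 3.57% of calcium handling and 4.35% of potassium channel genes, against 2.95% of all genes tested. For sodium and pacemaker channels the share was 10%, and for adrenergic and cyclic nucleotide genes 3.85%. Falls made up 4.35% of potassium channel and 3.85% of adrenergic and cyclic nucleotide genes, 1 gene in each, against 1.09% of all genes tested. The share that fell was 0 for calcium handling and for sodium and pacemaker channel genes. Of 28 calcium handling genes 1 rose, Atp2b4, a calcium pump of the cell membrane (0.63 ± 0.13), and the list median of -0.08 (-0.13 to 0.0021, the sign turning without sham replicate 1) turned to 0.07 under library totals. Atp2a2, which refills the sarcoplasmic reticulum with calcium, read 498431, 490483 and 401144 in sham and 358272, 225467 and 323939.6 in TAC libraries. The groups did not overlap, and its change of -0.64 ± 0.20 did not pass (adjusted p = 0.0845). Of 23 potassium channel genes 19 had negative changes and the median was -0.41 (-0.54 to -0.26), with 1 rise and 1 fall. For 9 of the 23 all TAC libraries lay below all sham libraries, against 17.4% of all genes tested, and for 2 above, against 17.8%. Kcnj12, an inward rectifier that helps to set the resting potential, fell by 0.60 on the log2 scale (SE 0.13, adjusted p = 0.0433). Kcna4, which carries a slow transient outward current, rose from 18.3, 20.6 and 23.4 in sham to 47.3, 53.9 and 49.7 in TAC libraries, a change of 1.24 ± 0.23 (adjusted p = 0.0397). DESeq2 called 6 potassium channel genes lower and limma on all 12 libraries 11. Of 10 sodium and pacemaker channel genes 1 rose, Scn3b, a beta subunit of sodium channels (1.56 ± 0.28). Among 26 adrenergic and cyclic nucleotide genes Adra1b, an alpha-1 adrenergic receptor, fell (-0.86 ± 0.18) and Prkg1, the kinase driven by cyclic GMP, rose (0.80 ± 0.13), with a median of -0.07 (-0.15 to -0.06) that turned to 0.08 under library totals.

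Of the 36 collagen chain genes tested 20 rose and the other 16 did not pass. Of the 10 fibrillar collagen genes, which form the tensile fibres of scar and interstitium, 6 rose (60%, against 2.95% of all genes tested). The median was 2.05 (1.51 without TAC replicate 2 to 2.33 without TAC replicate 1). Col3a1, the chain of type III collagen, read 5697, 4470.3 and 4192 in sham and 13934, 40703 and 16746 in TAC libraries. TAC replicate 2 was the highest by a wide margin, the groups did not overlap, and the change was 2.16 ± 0.36 (adjusted p = 0.0377). Col1a1, a chain of type I collagen, went from 2377, 2789.9 and 1496 to 6259.6, 22608 and 7241 (2.23 ± 0.48, adjusted p = 0.049). Of the type V chains, which nucleate these fibrils, Col5a2 rose by 2.08 ± 0.40, Col5a1 by 1.46 ± 0.28 and Col5a3 by 0.68 ± 0.14. The median of the fibrillar list over its sham libraries lay 0.13 above to 0.08 below the sham mean, while the TAC libraries stood 1.48, 3.11 and 1.37 above it, replicate 2 well above the other two.

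Collagens, laminins and nidogens of basement membranes, the sheets around muscle cells and vessels, were higher in all 3 TAC libraries, most in TAC replicate 2. Here 12 of 22 genes rose (54.55%, against 2.95% of all genes tested) and the median was 0.89 (0.70 to 0.96). The TAC libraries lay 0.73, 1.04 and 0.69 above the sham mean. Col4a3, a minor type IV chain on chromosome 1, 82586921 to 82722059 (plus strand), read 152, 124 and 119.7 in sham and 309, 315 and 321 in TAC libraries, a change of 1.26 ± 0.14 (adjusted p = 0.0217). Its 3 TAC values were almost equal. The major chain Col4a2 rose by 1.17 ± 0.18, from 13551, 11694 and 11342 to 23222, 35925 and 24719. Nid1, which links laminin to type IV collagen, rose by 0.93 ± 0.14 and Col18a1, the precursor of endostatin, by 1.62 ± 0.20. Col8a1, a short network collagen of the vessel wall, rose by 2.73 ± 0.42, from 622, 535 and 506 to 2429, 8035 and 2541. Among the beaded filament, fibril-associated and other collagens 6 of 16 rose (37.5%), with a median of 1.18 (0.90 to 1.37). They include Col6a3, of the beaded filaments at the cell surface (1.40 ± 0.22), and Col14a1, which sits on fibril surfaces (1.97 ± 0.32).

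**Figure D3:**
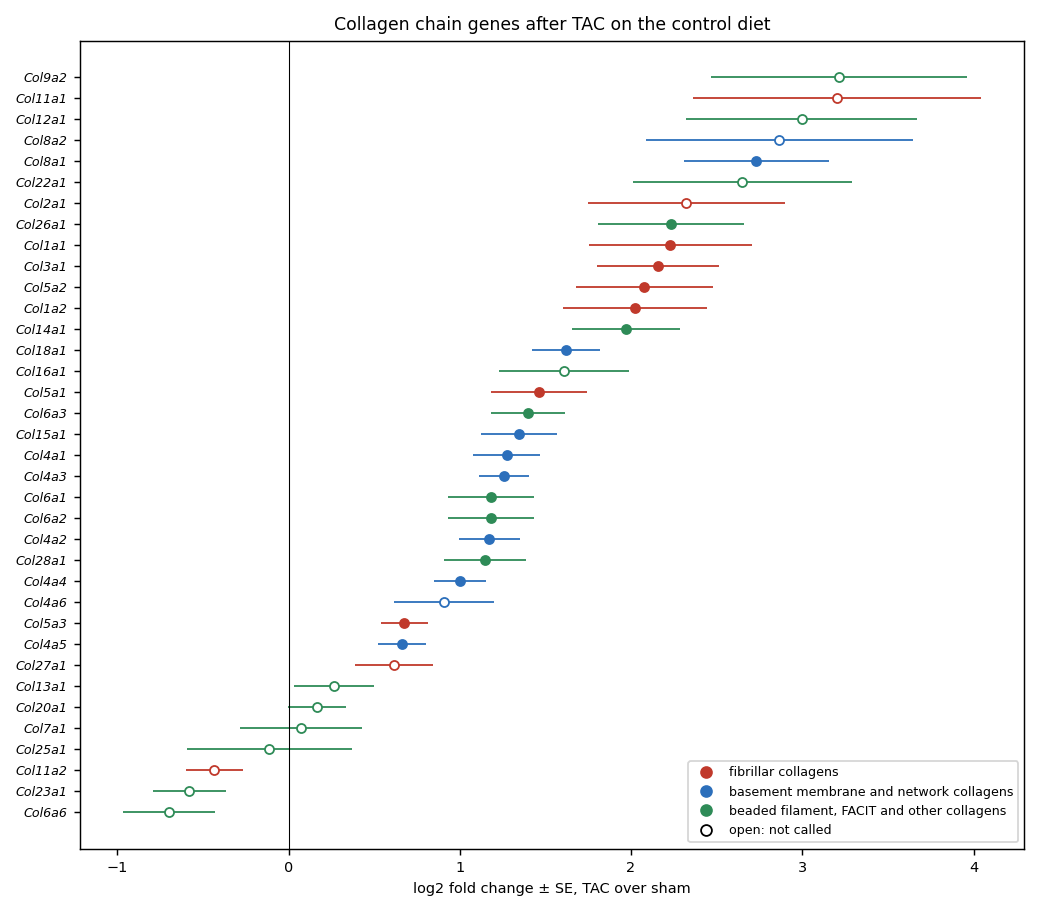
The log2 fold change of TAC over sham is shown ± SE for 36 collagen chain genes, filled where the gene passed and open where it did not, with 1 colour for each class. The 20 filled points lie to the right of 0, and chains with a wide SE, such as Col8a2 and Col12a1, are open although their changes are large.

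Matricellular proteins, secreted factors that tune how cells hold on to the matrix without being part of its scaffold, and other products of activated fibroblasts had the second highest median of the 73 lists, 1.80 (1.26 to 2.03). Of 30 measured, 14 rose (46.67%, against 2.95% of all genes tested) and 29 had positive changes. Postn, periostin, the usual marker of activated cardiac fibroblasts, read 1120.1, 863 and 1238 in sham and 5586, 22994 and 5654 in TAC libraries (3.08 ± 0.54, adjusted p = 0.0421). Thbs4, thrombospondin 4, which is made by loaded muscle and fibroblasts, went from 178, 182 and 169 to 1623, 6601 and 1136 (3.70 ± 0.60). In both genes TAC replicate 2 was far above the other two, and the lowest TAC value was still several-fold above the highest sham value. Tnc, tenascin C of healing tissue, went from 33.1, 24.5 and 30.3 to 183, 679 and 223 (3.34 ± 0.43). Cthrc1, a secreted protein of collagen-producing cells, gave 14 reads in all 3 sham libraries together and 611 in the TAC libraries. That is a ratio of 31.5 after scaling, with a 95% interval of 18.7 to 58.1 that covers counting error only. Spp1, osteopontin, rose by 2.59 ± 0.49 and Cilp, a matrix protein that restrains growth factors, by 3.30 ± 0.54. Dio2, the enzyme that activates thyroid hormone, is no matrix gene. It was also highest in TAC replicate 2 and rose from 60.1, 45.1 and 50.9 to 229.9, 852 and 209.7 (2.72 ± 0.48).

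Genes for enzymes and binding proteins of the matrix had positive medians in all 6 lists that follow. The share that rose ran from 14.81% to 36.36% over these lists, against 2.95% of all genes tested. Of 22 proteoglycan genes 8 rose (median 0.73, 0.56 to 0.81), among them versican, Vcan (1.29 ± 0.22), and asporin, Aspn (1.77 ± 0.29). Of 15 genes of elastic fibres and latent TGF-beta binding 4 rose (median 0.87, 0.69 to 1.00): fibrillin, Fbn1, went from 3176, 2869 and 2727 to 6541, 11859 and 6509.9 (1.45 ± 0.22) and Ltbp2, a latent TGF-beta binding protein, from 202, 188 and 158 to 1009.7, 4926 and 855 (3.15 ± 0.63). Of 27 genes that process and crosslink collagen 4 rose and 1 fell (median 0.59, 0.37 to 0.69). Loxl2, a lysyl oxidase, rose by 1.87 ± 0.36, and P3h4, a partner of the collagen-modifying enzymes, fell by 0.66 on the log2 scale (SE 0.14). Of 17 metalloproteinases and inhibitors 3 rose (median 0.58, 0.40 to 0.66): the gelatinase gene Mmp2 (1.57 ± 0.26), its activator Mmp14 (1.13 ± 0.24) and the inhibitor gene Timp1, which went from 49.6, 39.9 and 66 to 176, 657 and 261 (2.59 ± 0.43). Of 27 ADAM and ADAMTS genes 5 rose (median 0.40, 0.27 to 0.50), with Adamts8 at 2.26 ± 0.45 and Adamts9 at 0.78 ± 0.13. Of 19 integrin genes, the cell's grips on the matrix, 5 rose (median 0.64, 0.45 to 0.67). Itgb3, the beta-3 chain, went from 74.8, 83.8 and 64.7 to 192, 246 and 163 (1.41 ± 0.20) and Itga9, which binds tenascin, from 2196, 1854 and 1889 to 3522, 5132 and 4178 (1.10 ± 0.15).

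In the TGF-beta family 6 of 31 genes rose (19.35%, against 2.95% of all genes tested), with a median of 0.51 (0.34 to 0.54). The ligand gene among those named was Inhba, which encodes the subunit of activin A, from 24.4, 16.8 and 24.8 in sham to 58.3, 87.3 and 51.3 in TAC libraries (1.52 ± 0.28). The receptor gene Tgfbr1 rose by 0.77 ± 0.18, and the follistatin-like genes Fstl1, a secreted glycoprotein, by 1.77 ± 0.33 and Fstl3, an activin inhibitor, by 1.45 ± 0.28. In the CCN family limma called 0 of 5 genes, with 4 at an unadjusted p under 0.05, 0 by edgeR and 3 by DESeq2. The median was 1.15, from 0.68 without TAC replicate 2 to 1.47. Its member Ctgf, a matricellular growth factor partner, read 3286, 6445 and 8987 in sham and 9034, 24643 and 9369.8 in TAC libraries. Sham replicate 3 came close to TAC replicates 1 and 3, and the gene did not pass, with a change of 1.15 ± 0.47 (adjusted p = 0.163).

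Among genes for secreted growth factors and their partners, Igfbp2 and Edn3 were among the 10 rises with the smallest p-values. Igfbp2, which encodes an insulin-like growth factor binding protein on chromosome 1, 72824503 to 72852474 (plus strand), was nearly silent in sham hearts, with 1, 3 and 2 reads, and gave 90, 140 and 150 reads after TAC. The ratio after scaling was 45.8 with a 95% interval of 20.8 to 126 for counting error, and the change was 5.06 ± 0.42 (adjusted p = 0.00905). Edn3, endothelin 3, a vasoactive peptide, read 51.3, 51.5 and 50.9 in sham and 163, 151 and 171 in TAC libraries, a change of 1.63 ± 0.16 (adjusted p = 0.0129). Its spread was small in both groups. Ace, the angiotensin-converting enzyme, rose by 1.15 ± 0.20, from 1932, 1898 and 1662 to 3213, 5775 and 3629.9, and with Edn3 made up the 2 of 13 endothelin and renin-angiotensin genes that rose (median 0.16, 0.08 to 0.24). Of 26 genes of the insulin-like and fibroblast growth factor families 4 rose and 1 fell (median 0.21, 0.17 to 0.26). Igf1r, the receptor of insulin-like growth factor, rose by 0.68 ± 0.15, and Fgf6, a growth factor of skeletal muscle, by 1.65 ± 0.36. Fgf16, a growth factor that cardiac muscle cells themselves secrete, fell: it read 499, 509 and 524 in sham and 334, 280.2 and 285 in TAC libraries, a change of -0.77 ± 0.12 (adjusted p = 0.0363). Of 11 genes of the epidermal growth factor family 1 rose, the receptor gene Egfr (0.68 ± 0.16). Of 28 Wnt pathway genes 1 rose, Frzb, a secreted Wnt inhibitor, by 2.13 ± 0.40, from 139, 119.8 and 138 to 433, 1241 and 366. Rises made up 3.57% of Wnt and 9.09% of epidermal growth factor genes, against 2.95% of all genes tested.

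Interferon-stimulated genes, the antiviral set that interferons switch on, were higher after TAC as a group. Of the 34 measured members 34 were higher on average after TAC and 12 rose (35.29%, against 2.95% of all genes tested). The median was 0.75 (0.62 to 0.87). The sham libraries lay -0.05, -0.23 and 0.24 from the sham mean by the median member and the TAC libraries 0.50, 1.03 and 0.73 above it, so the groups did not overlap. The count of rises was 1 without TAC replicate 2, 2 without sham replicate 3, 20 with the GC and length trends removed and 25 by DESeq2. Ifit2, which binds viral RNA, went from 377, 335 and 413 in sham to 678, 926 and 703 in TAC libraries (1.03 ± 0.15, adjusted p = 0.0339). Zbp1, a sensor of left-handed nucleic acid, went from 23.5, 23.2 and 30.3 to 51.7, 80.8 and 74.8 (1.38 ± 0.25), and the RNA sensor gene Ifih1 from 192, 189 and 197 to 288, 358 and 333 (0.75 ± 0.13). Rsad2, the antiviral enzyme viperin, and Gbp7, a guanylate-binding protein, were named after their values were seen, for their promoters. Rsad2 read 506, 388 and 523 in sham and 711, 764 and 746 in TAC libraries (0.66 ± 0.13), and Gbp7 read 315, 329.9 and 281 and 411, 481 and 493 (0.58 ± 0.13). The interferon-stimulated response element lay in the 250-base window of 13 of the 23 members with a matched promoter (56.5%), against 3.46% of all promoters and 3.14% of those of genes tested. Among the 9 matched members that rose 4 held it (44.4%), and among all genes that rose 3.59%.

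Of 23 macrophage markers 1 rose, Csf1r, the receptor of the macrophage growth factor (0.42 ± 0.092), and the median was 0.56 (0.40 to 0.71), while DESeq2 called 10. The 1 rise is 4.35% of the list, against 2.95% of all genes tested. Of 25 chemokine and cytokine genes 1 rose and 1 fell. Il34, another ligand of the receptor Csf1r, rose by 0.98 ± 0.20, and Il15, a cytokine of muscle and lymphocyte growth, fell from 705, 677 and 706 to 449, 219.8 and 365 (-1.07 ± 0.23). Of 9 class II antigen presentation genes 2 rose, Cd74 (0.83 ± 0.17) and H2-Aa (0.89 ± 0.19). Of 19 complement genes 2 rose, C4b by 1.19 ± 0.17, from 579.6, 563 and 543 to 1076, 1710.2 and 1148, and C1s1 by 0.48 ± 0.096. The shares that rose were 22.22% for class II and 10.53% for complement genes. Kit, the receptor of mast cells and progenitors, rose by 1.25 ± 0.20 as 1 of 8 neutrophil and mast cell markers. For lymphocyte markers limma called 0 of 8, with 1 at an unadjusted p under 0.05 and 0 by edgeR and DESeq2. Their median of -0.11 changed sign with single libraries, from -0.43 without TAC replicate 3 to 0.31 without TAC replicate 2. For adipocyte markers it called 0 of 9, with 0 at an unadjusted p under 0.05 and 0 by edgeR and DESeq2. The adipocyte median of 0.13 went to -0.21 without TAC replicate 1 and to 0.98 without TAC replicate 3.

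Markers of resident fibroblasts rose in 4 of 14 cases (median 0.37, 0.33 to 0.45), with Cd248, a surface protein of stromal cells, at 0.90 ± 0.17 and Mfap5, a microfibril protein, at 2.00 ± 0.42. The TAC libraries lay 0.33, 0.49 and 0.36 above the sham mean by the median marker, against 1.34, 2.77 and 1.26 for the matricellular list. Smooth muscle markers rose in 3 and fell in 1 of 13 cases (median 0.45, 0.35 to 0.56), with calponin, Cnn1, higher by 1.36 ± 0.28 and smoothelin, Smtn, at -0.61 ± 0.12. Of 13 pericyte markers Mcam, an adhesion molecule of the vessel wall, rose (0.73 ± 0.13), and of 21 endothelial markers Erg, an endothelial transcription factor, rose (0.43 ± 0.089). Rises made up 28.57% of resident fibroblast, 23.08% of smooth muscle, 7.69% of pericyte and 4.76% of endothelial markers, against 2.95% of all genes. The endothelial median was 0.28 (0.22 to 0.27 over the omissions). Of 51 cell cycle genes 43 had positive changes and the median was 0.78 (0.36 without TAC replicate 2 to 0.96), but 1 rose and 1 fell. Bub1, a mitotic checkpoint kinase at low values, went from 3.48, 3.87 and 5.5 to 15.4, 42 and 14.7 (2.10 ± 0.47, adjusted p = 0.0468), and Cenpf, a kinetochore protein, fell from 564, 572 and 389 to 300.3, 244 and 275 (-0.88 ± 0.17). DESeq2 called 17 cell cycle genes higher and edgeR 0, with 25 at an unadjusted p under 0.05 and a positive change by limma.

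**Figure D4:**
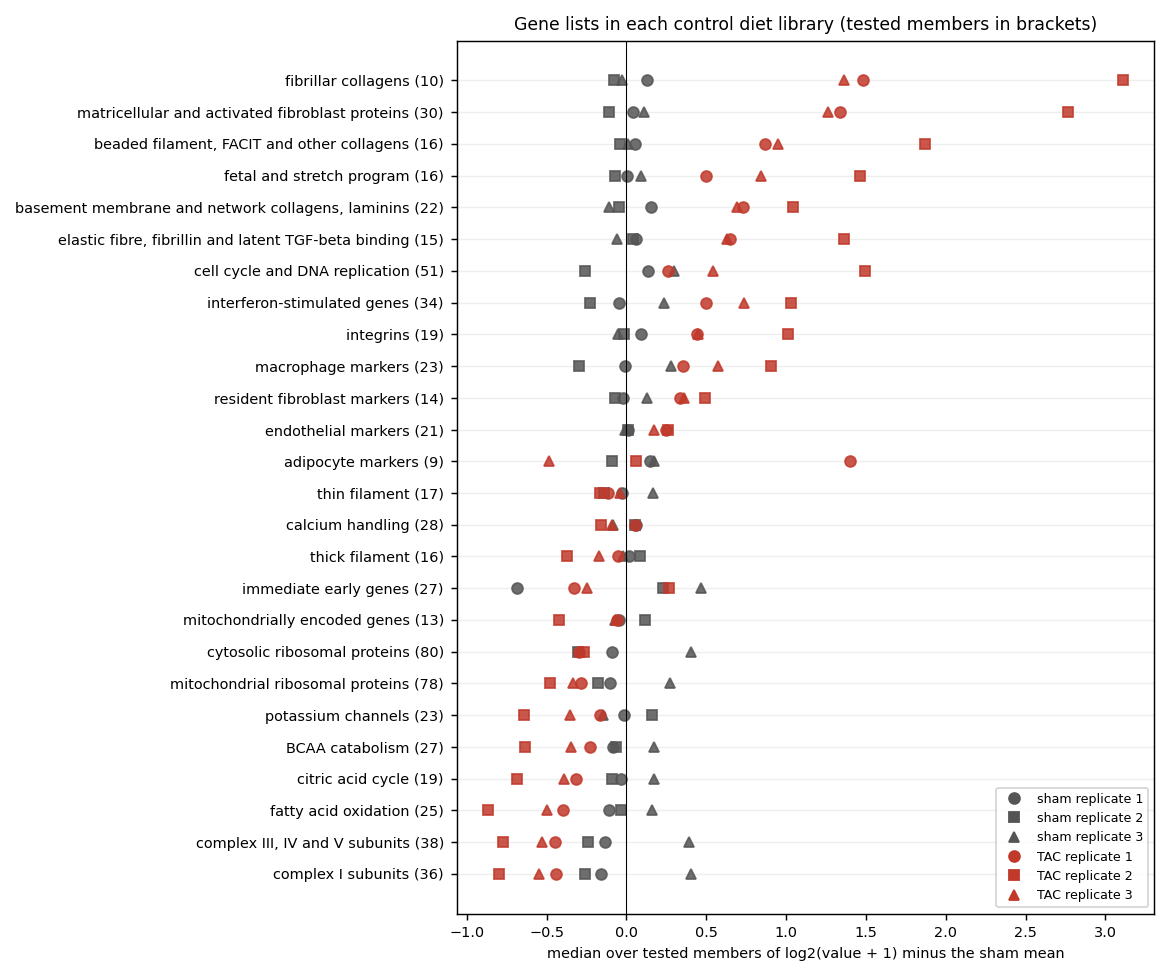
Each point is the median over the tested members of a list (number in brackets) of log2(value + 1) minus the sham mean in 1 library, with sham in grey, TAC in red and 1 shape per replicate. TAC replicate 2, the red square, is farthest to the right for fibrillar collagens (3.11) and farthest to the left for complex I (-0.80), and sham replicate 3, the grey triangle, is highest for complex I (0.41).

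Fatty acid oxidation genes were lower after TAC as a group. All 25 measured members had negative changes and 7 fell (28%, against 1.09% of all genes tested). The median was -0.57 (-0.68 to -0.43). For 23 of the 25 all TAC libraries lay below all sham libraries, as they did for 17.4% of all genes tested. The number that fell was 20 by DESeq2, 17 with the GC and length trends removed, 20 in the fit of all 12 libraries and 3 by edgeR. Ech1, an isomerase of unsaturated fatty acids, on chromosome 7, 28825217 to 28832247 (plus strand), read 32607, 35958 and 46665 in sham and 20704, 12365 and 19381 in TAC libraries, a change of -1.15 ± 0.22 (adjusted p = 0.0397). TAC replicate 2 was the lowest. Mlycd, malonyl-CoA decarboxylase, which relieves the block on fatty acid entry, went from 3650.04, 4113 and 4143 to 2731, 2035 and 2471 (-0.73 ± 0.13). Cpt2, of the carnitine shuttle, fell by 0.57 on the log2 scale (SE 0.13) and Acot1, a thioesterase, by 1.12 (SE 0.25). Cpt1b, the muscle form of the entry enzyme, had a change of -0.28 ± 0.13 that did not pass (adjusted p = 0.18). Of 13 uptake and activation genes 1 fell, Slc27a1, a fatty acid transporter, by 0.66 (SE 0.15).

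Of 18 regulators of this program 1 fell: Esrra, the estrogen-related receptor alpha, read 7521, 7590.1 and 7826 in sham and 5658, 4483 and 5407 in TAC libraries, a change of -0.57 ± 0.12 (adjusted p = 0.0433). Ppargc1a, the coactivator PGC-1 alpha, read 3634, 4277 and 5028 and 3058, 2401 and 3099, and its change of -0.59 ± 0.15 did not pass (adjusted p = 0.0564) although the groups did not overlap. The regulator list had a median of -0.23 (-0.27 to -0.16).

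Nuclear genes of respiratory complexes I and III to V had negative changes without single genes passing. All 36 nuclear complex I genes had negative changes within a narrow band, -0.71 to -0.43, and for 35 of them all TAC libraries lay below all sham libraries, against 17.4% of all genes tested. The median was -0.61 (-0.72 to -0.41). Limma called 0 of them, with all 36 at an unadjusted p under 0.05, and edgeR called 0, DESeq2 33 and limma on all 12 libraries 35. Ndufv1, the subunit that takes electrons from NADH, read 21630.4, 23916 and 28429 in sham and 18510.3, 13669 and 16950.1 in TAC libraries (-0.59 ± 0.16, adjusted p = 0.061). Sham replicate 3 was the highest, as it was for the whole list (0.41 above the sham mean by the median gene, against -0.16 and -0.26 in the other two). That library also read high for short transcripts, as given above. With the GC and length trends removed the median was -0.52 and 20 fell, and without sham replicate 3 the median was -0.41. The 38 genes of complexes III to V had much the same level of change (median -0.58, -0.68 to -0.41). Limma called 0 of them, with 36 at an unadjusted p under 0.05, edgeR called 0 and DESeq2 35. Cox6a2, the muscle form of a cytochrome oxidase subunit, had a change of -0.62 ± 0.16 (adjusted p = 0.0575).

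Of 19 citric acid cycle genes all had negative changes and 1 fell, Sdhc, the membrane anchor of succinate dehydrogenase, from 12729, 12103 and 14966 to 9435, 7594 and 9119 (-0.61 ± 0.13). The median was -0.48 (-0.57 to -0.37). Mitochondrial ribosomal proteins were lower for 78 of 78 genes by sign, with a median of -0.37 (-0.46 to -0.22), and 2 fell, Mrps35 (-0.65 ± 0.14) and Mrpl45 (-0.47 ± 0.11). The 13 genes encoded in mitochondrial DNA had a median of -0.19 (-0.25 to -0.07). Limma called 0 of them, with 2 at an unadjusted p under 0.05, edgeR called 0 and DESeq2 1. One of them, mt-Nd1, a complex I subunit, stood at 797407, 766008 and 742239.8 in sham and 626059, 447202 and 616491 in TAC libraries (-0.46 ± 0.17, adjusted p = 0.123). Cytosolic ribosomal proteins had a median of -0.28 (-0.44 to -0.09, the latter without sham replicate 3). Limma called 0 of these 80 genes, with 9 at an unadjusted p under 0.05, edgeR called 0 and DESeq2 2.

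Of the 27 measured genes that break down branched-chain amino acids, 26 had negative changes and 1 fell, Mccc2, a subunit of the leucine pathway's carboxylase, from 1747, 1749.98 and 2013 to 1349.6, 987 and 1254 (-0.63 ± 0.13). The median was -0.42 (-0.49 to -0.27), DESeq2 called 12 lower and limma on all 12 libraries 20. In glucose uptake and glycolysis 1 of 25 genes rose and 1 fell, with a median of -0.13 (-0.15 to -0.01) that turned to 0.02 under library totals. Pfkp, the platelet form of phosphofructokinase, rose by 0.87 ± 0.20, and Ldhb, the heart form of lactate dehydrogenase, fell from 38539, 37679.99 and 47747 to 26788, 20083 and 26415 (-0.76 ± 0.16). Of 17 glycogen genes 1 fell: Phkg1, the catalytic subunit of muscle phosphorylase kinase, which drives glycogen breakdown, fell from 696, 705 and 801 to 452, 216 and 351 (-1.17 ± 0.23). Pdk4, which holds back pyruvate oxidation, had a change of -0.43 ± 0.16 (adjusted p = 0.117), and Ckm, muscle creatine kinase, one of -0.50 ± 0.19 (adjusted p = 0.129).

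Among stress and housekeeping programs few members passed, though in some lists the share that fell was above the 1.09% of all genes tested. It was 8% for antioxidant, 10.53% for clock and 3.7% for immediate early genes, and 0 for the unfolded protein response. The first 3 shares rest on 2, 2 and 1 genes, and in lists of this size a single fall already exceeds 1.09%. Of 25 antioxidant genes 2 fell, Gstm1, a glutathione transferase (-0.77 ± 0.15), and Sod1, the cytosolic superoxide dismutase (-0.71 ± 0.16), with a median of -0.10 (-0.22 to -0.07) that turned to 0.05 under library totals. Of 27 immediate early genes 1 fell, Gadd45b, a stress-induced growth arrest gene, from 1057, 1434 and 1569.9 to 678, 723 and 949.6 (-0.78 ± 0.18), and sham replicate 1 lay 0.69 below the sham mean by the median of this list. In the unfolded protein response limma called 0 of 23 genes, with 5 at an unadjusted p under 0.05, edgeR called 0 and DESeq2 2. In the circadian clock, whose genes cycle through the day, 1 of 19 rose and 2 fell. Per2 rose by 1.19 ± 0.26 and the activator gene Arntl fell by 0.51 on the log2 scale (SE 0.10), and the time of day of collection is not in the labels. Of 26 genes of serine synthesis, one-carbon metabolism and the ATF4 response 2 rose and 1 fell. Slc7a5, a transporter of large neutral amino acids, leucine among them, rose from 145, 137 and 159.6 to 294, 406 and 309 (1.17 ± 0.16, adjusted p = 0.0295).

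The largest falls and the smallest p-values also picked out genes outside these programs. Tbc1d10c, a Rab GTPase-activating protein of immune cells, fell from 208, 267 and 305 in sham to 119.9, 55 and 84.6 in TAC libraries (-1.63 ± 0.28). Ybx2, a Y-box nucleic acid binding protein, fell from 1414, 1535 and 1596 to 871, 351 and 583 (-1.42 ± 0.28), with TAC replicate 2 the lowest in both genes. Rap1gap, an inhibitor of the small GTPase Rap1, fell from 808, 823 and 955 to 463, 438 and 440.1 with nearly equal TAC values (-0.94 ± 0.11, adjusted p = 0.0217). Pim1, a survival kinase, fell from 1904, 2331 and 1834 to 926, 1206 and 1115 (-0.90 ± 0.14). On the side of the rises Mgat5b, a glycosyltransferase, went from 20.9, 25.8 and 16.5 to 115, 166 and 151 (2.72 ± 0.24, adjusted p = 0.00905), and Creb5, a transcription factor, from 202, 218 and 238 to 458, 565 and 484 (1.19 ± 0.13). Sorl1, a sorting receptor, rose from 436, 409 and 374 to 739, 725 and 791 (0.89 ± 0.11).

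The same operation on the diet free of BCAA, in the other 6 libraries, gives the test of what differed by diet, and it shares no sample with this comparison. On that diet 524 genes rose (3.34% of genes tested) and 453 fell (2.89%). Of genes tested on both diets 39 rose on both, 8.88% of the 439 that rose on the control diet and 7.49% of the 521 that rose on the other. In the same way 11 fell on both, 6.55% of 168 and 2.43% of 453. By sign alone, 285 of the 439 rises had a positive change on the BCAA-free diet and 77 of the 168 falls a negative one. The median changes on that diet were 0.12 for these rises and 0.02 for these falls, against 0.0021 over all genes. The interaction test passed for 1316 of 15088 genes (8.72%): the TAC effect was more positive on the control diet for 569 (3.77%) and more negative for 747 (4.95%). With the GC and length trends removed these were 141 and 486. On the BCAA-free diet the count of 1316 went to 246 without TAC replicate 3, 279 without sham replicate 2, 298 without sham replicate 1, 439 without TAC replicate 1 and 696 without TAC replicate 2. On the control diet it went to 640 without TAC replicate 2 and 657 without TAC replicate 3. Deviations ran with GC content at Spearman 0.20, 0.41 and 0.39 in the TAC libraries of the BCAA-free diet, against -0.22 to 0.039 in the other 9. With transcript length they ran at -0.30, -0.12 and -0.36 in those TAC libraries. Over the same 12 libraries sham replicate 3 of the control diet stood at -0.41, and the remaining libraries lay between 0.057 and 0.25. The part of both trends in the difference was not tested beyond that removal.

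The background for each count by list is the share over all genes tested, 4.95% more negative and 3.77% more positive on the control diet. With the trends removed it is 486 and 141 of 15056 genes. By list, 27 of 36 complex I genes had a more negative TAC effect on the control diet, 21 with the trends removed. The list median was -0.61 on the control and 0.23 on the BCAA-free diet. For complexes III to V it was 30 of 38, and 20 with the trends removed, and for fatty acid oxidation 11 of 25, and 10 with the trends removed. Basement membrane genes had a more positive effect on the control diet in 10 of 22 cases, 6 with the trends removed, with medians of 0.89 and 0.05. For the interferon-stimulated genes this held for 8 of 33, 2 with the trends removed, with medians of 0.75 and 0.03. Proteoglycans passed in 6 of 21 and integrins in 7 of 18, and with the trends removed in 0 and 2. Fibrillar collagens, with the highest median on the control diet, passed in 1 of 8 (Col5a3, interaction 0.97), and matricellular genes in 2 of 30, 0 with the trends removed. For these the medians were 2.05 against 0.34 and 1.80 against 0.54. Of the fetal program 3 of 16 passed, 1 with the trends removed.

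**Figure D5:**
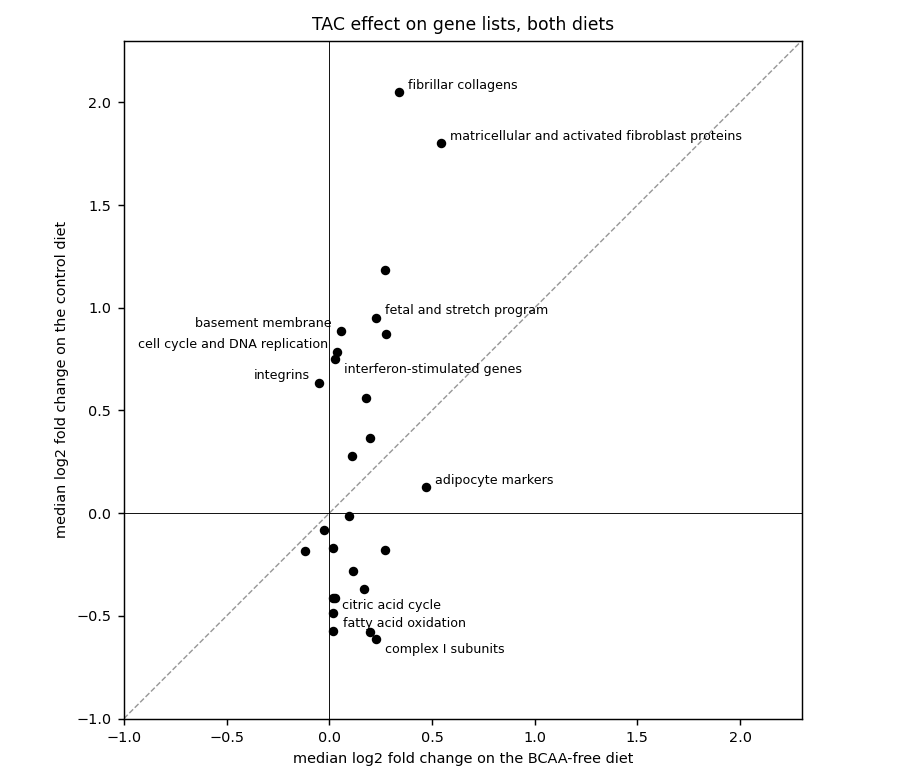
Each point is 1 of 26 gene lists, with the median log2 fold change of TAC over sham on the BCAA-free diet on the x axis and on the control diet on the y axis, and a dashed line where both would be equal. Collagen, matricellular, interferon and basement membrane lists lie above the line, and complex I (-0.61 on the control and 0.23 on the BCAA-free diet) lies below it.

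Single genes show the range. Fgf16 had changes of 0.75 on the BCAA-free and -0.77 on the control diet, an interaction of -1.53 (adjusted p = 0.00536). Creb5 had changes of -0.053 and 1.19, an interaction of 1.24 (adjusted p = 0.00477). Xirp2 had 0.18 and 1.91 (1.72, adjusted p = 0.0233), and Col4a3 -0.11 and 1.26 (1.37, adjusted p = 0.0181). Igfbp2 rose on both diets, by 3.89 and 5.06, and the difference did not pass (1.16, adjusted p = 0.266). For Acta1 the changes were 1.53 and 2.73, and the difference did not pass either (1.20, adjusted p = 0.0784).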

How the data were processed

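PolyA RNA of 6 mouse heart samples was compared, 3 sham and 3 TAC samples on the control diet. The 6 of the BCAA-free diet were fitted in the same way, and entered the interaction and 1 alternative fit. The authors deposited normalized read counts (a signal: reads over 1 size factor per library, within each table), with their own log2 fold change, p-value and adjusted p-value per gene. Reads were handled with DESeq2, Subread 1.5.2, STAR 2.5.2b and Trimmomatic 0.36 on GRCm38 (mm10), per the submitters' processing notes, which give no roles. The DESeq2 version is not given in the sources used here. Whole reads were recovered from the value of 1 read in each library: 100% of values came out whole within 0.01. Groups came from the sample labels.

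The main test was limma 3.58.1 (trend and robust variances, statmod 1.5.0, R 4.3.3) on log2(value + 1) of genes with a mean of at least 10, with Benjamini-Hochberg adjustment over all genes tested. edgeR 4.0.16, DESeq2 1.42.0 and voom on recovered reads, TMM and library totals as scaling, removal of each library's GC and length trend, a mean of at least 100, no filter, a pseudocount of 10, a replicate block, and omission of each library were alternatives. The fit of all 12 libraries and the trend removal for the interaction were added after seeing the data. Scripts were tested on simulated data. Genes, coordinates, GC and length came from GENCODE M21 by Ensembl identifier (99.8% matched), promoters from RefSeq by symbol.

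The members and the 73 gene lists were chosen with earlier results of these data known. Genes are named where they are among the 15 largest rises or falls (mean of at least 100, no overlap), the 10 smallest p-values in each direction, up to 4 called members of a list (or 2 where none was called), or 19 genes often measured in loaded hearts. Not all of these are named. Adipoq, Ucp1, Lpl, Enah, Rsad2, Gbp7, Col8a2 and Col12a1 are outside this rule or were picked after their values were seen. Depth limits low genes most: intervals of read ratios are exact and cover counting error only, since the labels name no molecular identifiers. Replicates of a group differed by more than sampling noise.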

Additional observations from a re-analysis of the deposited data

Results flagged for a closer look

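Of the 129 genes named, 127 were tested for a difference of the TAC effect between the control and the BCAA-free diet, and 67 passed at an adjusted p under 0.05 of limma's interaction test. Most of these genes were named for their result on the control diet, which is part of the interaction, so the share that passed is a description and no support. Values are the log2 change with TAC on the control diet minus that on the BCAA-free diet.

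The effect was more positive on the control diet for 39 of them. For matrix and adhesion genes it was 2.14 (Col8a1), 1.66 (Aspn), 1.65 (Col14a1), 1.48 (Fbn1), 1.46 (Itgb3), 1.37 (Col4a3), 1.27 (Vcan), 1.13 (Col6a3), 1.11 (Mmp14), 1.06 (Col4a2), 0.97 (Col5a3), 0.91 (Nid1), 0.88 (Adamts9), 0.85 (Itga9) and 0.63 (Mcam). For genes of the sarcomere, the stretch program and ion transport it was 1.72 (Xirp2), 1.5 (Scn3b), 1.26 (Kcna4), 1.06 (Mybpc2), 0.98 (Prkg1), 0.95 (Rcan1), 0.92 (Enah), 0.84 (Atp2b4) and 0.50 (Nrap). For genes for growth factors and receptors it was 1.65 (Fgf6), 1.39 (Inhba), 1.18 (Egfr), 1.12 (Kit), 1.04 (Tgfbr1) and 0.94 (Igf1r). For interferon and complement genes it was 1.14 (Rsad2), 1.00 (Ifit2), 0.96 (Ifih1), 0.84 (Gbp7) and 0.47 (C1s1). For other genes it was 1.98 (Mgat5b), 1.24 (Creb5), 0.92 (Slc7a5) and 0.91 (Sorl1).

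The effect was more negative on the control diet for 28 of them. For mitochondrial and fuel genes it was -1.18 (Ech1), -1.05 (Mlycd), -1.0 (Phkg1), -0.82 (Cox6a2), -0.80 (Ckm), -0.79 (Ldhb), -0.78 (Ndufv1), -0.78 (Sod1), -0.74 (Slc27a1), -0.73 (Esrra), -0.67 (Mccc2), -0.65 (Mrps35), -0.64 (Cpt2) and -0.61 (Sdhc). For genes of muscle, signalling and structure it was -1.09 (Tuba4a), -0.99 (Tnni3), -0.89 (Adra1b), -0.88 (P3h4), -0.79 (Smtn) and -0.69 (Kcnj12). For genes for growth factors, cytokines and regulators it was -1.67 (Ybx2), -1.53 (Fgf16), -1.47 (Gadd45b), -1.25 (Rap1gap), -1.24 (Tbc1d10c), -1.13 (Il15), -1.03 (Pim1) and -0.86 (Cenpf). With the GC and length trends of each library removed the count over all genes fell from 1316 to 627.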

How the results depend on the processing

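Of the 622 genes called on the control diet, 454 higher and 168 lower, the count depended on the test and on each library. DESeq2 on recovered reads called 2203 (1291 higher, 912 lower), limma on all 12 libraries 2991 (1579 and 1412), library totals as scaling 1415 (1267 higher), removal of the GC and length trends 1483 (845 lower), and voom 321 (225 and 96). A fold of at least 1 on the log2 scale left 244 (207 and 37). TMM, edgeR, the filter at 100, no filter and a pseudocount of 10 kept the total between 477 and 619. Leaving out 1 library at a time gave 0 to 1061 calls, 0 to 701 of them higher and 0 to 360 lower. The interaction count of 1316 became 627 with the trends removed and 246 to 1743 with 1 library left out. The labels do not say that the numbers of sham and TAC samples pair them. Deviations from the group means correlated at -0.02, -0.13 and -0.12 for same-numbered samples and at -0.055 to 0.12 for differently numbered ones. These values cannot settle pairing, since the deviations of a group of 3 sum to 0. With the replicate block 822 genes passed, 277 of them lower, with the block and the trend removal 899, 506 of them lower, and the interaction with the block passed for 977. Among the 129 genes named, the 114 that passed kept their direction under each alternative that tested them. DESeq2 and the fit without a filter kept all 114 past the threshold, edgeR 100, voom 74 and the omission of TAC replicate 3 none, with 0 genes called in all. The change of Adipoq, which did not pass, ranged from -0.012 without TAC replicate 1 to 1.21 without TAC replicate 3. The cause of these changes was not tested beyond the construction of each alternative.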
